A study of Homo sapiens with 3 samples.

Results

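The BCL2 family regulators are a set of 10 genes whose proteins decide whether the outer mitochondrial membrane stays intact, and their transcript levels were followed in LNCaP cells treated with n-butylidenephthalide (BP). The set was chosen by gene symbol and comprised BCL2, BCL2L1, MCL1, BAX, BAK1, BAD, BID, BMF, BCL2L11 and BBC3. All 10 were found among the 19208 genes of the arrays, each represented by 1 transcript cluster, and none was removed by a filter. LNCaP, a prostate cancer line of human origin, responds to androgen, and BP is a compound isolated from the herb Angelica sinensis. RNA from control cells, from cells given 70 µg/ml BP for 3 h and from cells given 70 µg/ml BP for 24 h was hybridized to Human Gene ST arrays from Affymetrix, 1 for each condition. The title of the series names DMSO or BP, but the label of the control array gives neither a treatment nor a harvest time. Whether the control received DMSO is therefore not known, and BP treatment cannot be told apart from a difference in culture time.

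Proteins of the BCL2 family share short homology regions called BH domains and act at mitochondria. Pro-survival members hold the effectors BAX and BAK1 in check, whereas BH3-only proteins, which carry only the BH3 region, bind the pro-survival members or engage the effectors directly. Once freed, the effectors form pores through which cytochrome c leaves the mitochondrion and activates caspases. ER stress, DNA damage and loss of survival signals are known to reach this family largely through the transcription of BH3-only genes, but many of its proteins are also controlled by phosphorylation, cleavage or degradation, which the arrays do not read.

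The values are log2 values per transcript cluster as the authors deposited them, and a difference of 1 on this scale is 2-fold. With 1 array for each condition no test was possible, there is no p-value and no replicate error, and precision is limited by the number of arrays. A gene was counted as higher or lower where it was past 2-fold, which is the threshold of the study. The sizes of the differences are set beside those of all 19208 genes. With 2.5% of genes set aside at either end, differences from control spanned -0.35 to 0.48 at 3 h. The same span was -0.86 to 0.81 at 24 h. Exactly equal deposited values on 2 or more arrays were common, and occurred for 62.6% of all genes and for 4 of the 10 members. Both comparisons with control share the 1 control array, so an error in that array would enter both.

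BMF was the member with the highest difference from control at both times. It encodes a BH3-only protein that is held at the actin motor complex in healthy cells and is released under stress. BMF, transcript cluster 7987454 in cytoband 15q14, had a log2 value of 6.06 in control cells, 7.08 with 3 h of BP and 6.72 with 24 h of BP. Its value was thus highest on the 3 h array and lowest on the control array. On the control array, at 6.062, it lay close to the median level of all genes, 6.055, taken over the means of the 3 arrays. At 3 h it was 2.03-fold of control, and 0.375% of all genes lay at least as far from control in either direction. This difference of 1.02 lies just past the 2-fold threshold, and it was 0.94 when arrays were centred on their 75th percentiles and 0.97 when they were quantile normalized, so the call depends on the scaling. At 24 h BMF was 1.58-fold of control, and 7.24% of all genes lay at least as far. Relative to the 3 h array its difference at 24 h was -0.36.

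RefSeq promoter windows of build GRCh38.p14, from 250 bases before to 50 after a start, were matched for 9 of the 10 members, not MCL1, and for PMAIP1, a further BH3-only gene. The first listed windows of BMF, BCL2L1 and PMAIP1 are shown, which had values above control on both BP arrays. BCL2L13 and BNIP3, other family genes, also lay above control on both, but their windows were not looked up. PMAIP1 was the only gene outside the members that was looked up, so the shown genes are a selection. Capitals mark CCAAT, the CCAAT box, and TGACG, which is only a part of the full site of the ATF and CREB factors, each on either strand.
BMF, chr15:40108830-40109129, minus strand: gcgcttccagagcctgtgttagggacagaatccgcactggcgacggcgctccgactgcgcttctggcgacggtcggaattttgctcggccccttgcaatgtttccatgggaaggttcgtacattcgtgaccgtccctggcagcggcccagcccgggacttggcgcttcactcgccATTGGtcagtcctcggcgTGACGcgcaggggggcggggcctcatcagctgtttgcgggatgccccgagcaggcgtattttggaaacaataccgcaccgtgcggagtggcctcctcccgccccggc
BCL2L1, chr20:31723914-31724213, minus strand: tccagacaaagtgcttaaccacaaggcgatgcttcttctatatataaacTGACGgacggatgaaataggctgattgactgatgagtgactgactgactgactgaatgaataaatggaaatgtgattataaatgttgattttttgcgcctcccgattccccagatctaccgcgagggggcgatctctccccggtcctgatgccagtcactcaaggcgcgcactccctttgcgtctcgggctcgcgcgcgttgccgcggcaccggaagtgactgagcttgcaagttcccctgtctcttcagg
PMAIP1, chr18:59899746-59900045, plus strand: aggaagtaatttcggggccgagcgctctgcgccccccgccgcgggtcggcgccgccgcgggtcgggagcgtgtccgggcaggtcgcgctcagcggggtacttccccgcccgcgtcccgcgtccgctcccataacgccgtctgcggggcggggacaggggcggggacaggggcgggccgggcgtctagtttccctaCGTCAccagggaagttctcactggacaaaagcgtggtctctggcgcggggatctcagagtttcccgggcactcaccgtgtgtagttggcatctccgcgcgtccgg
Each of these 3 windows held TGACG once, and that of BMF also held CCAAT once. The second listed windows of BMF and BCL2L1 held neither motif. In the first windows of the members, TGACG occurred in 5 of 9, CCAAT in 6 of 9 and GGGCGG, the GC box, on either strand in 6 of 9. Among the first windows of all 27305 genes of the table the shares were 25% for TGACG, 35.7% for CCAAT and 44.6% for GGGCGG, and among all 35116 windows they were 24.6%, 34.6% and 45%. TGACG was also in the first windows of BAX, BAD and BCL2, which did not have values above control at both times. A motif in these letters is a description of the window and not evidence of a bound site, and the binding of a factor was not measured.

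At 3 h 1 of the 10 members, BMF, was higher by at least 2-fold, against 0.344% of all genes, and 0 were at least 2-fold lower, against 0.0469%. At 24 h 0 members were at least 2-fold higher and 0 were at least 2-fold lower, against 1.53% and 2.11% of all genes. Between 3 h and 24 h 0 members were past 2-fold in either direction, while 0.807% of all genes were higher and 2.4% were lower by 2-fold at the later time. At these shares a list of 10 genes would hold few or no called genes, so the counts say little about the family. The median difference of the members was -0.02 at 3 h and 0.00 at 24 h, against 0 for all genes at both times. Between 3 h and 24 h the median of the members was 0.11, with 6 members above 0, 3 below and 1 equal. The median of all genes was 0, with 6290 above 0, 4626 below and 8292 equal. Genes that were not equal thus also lay more often above 0, so the split of the members is not particular to them. Over the alternatives the median of the members was 0.09 to 0.17. The median of all genes also moved with the scaling, from -0.01 to 0.06. At a threshold of 1.5-fold, BMF was the 1 member counted as higher at each time, against 1.55% of all genes at 3 h and 4.49% at 24 h. Lower by 1.5-fold were 0 members, against 0.401% of all genes at 3 h and 4.04% at 24 h. Between 3 h and 24 h 0 members were past 1.5-fold, against 2.45% of all genes higher and 5.12% lower. At 3-fold 0 members were past the threshold in any comparison, against 0.109% of all genes higher and 0% lower at 3 h, 0.458% and 0.994% at 24 h, and 0.177% and 1.1% between the times.

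**Figure D1:**
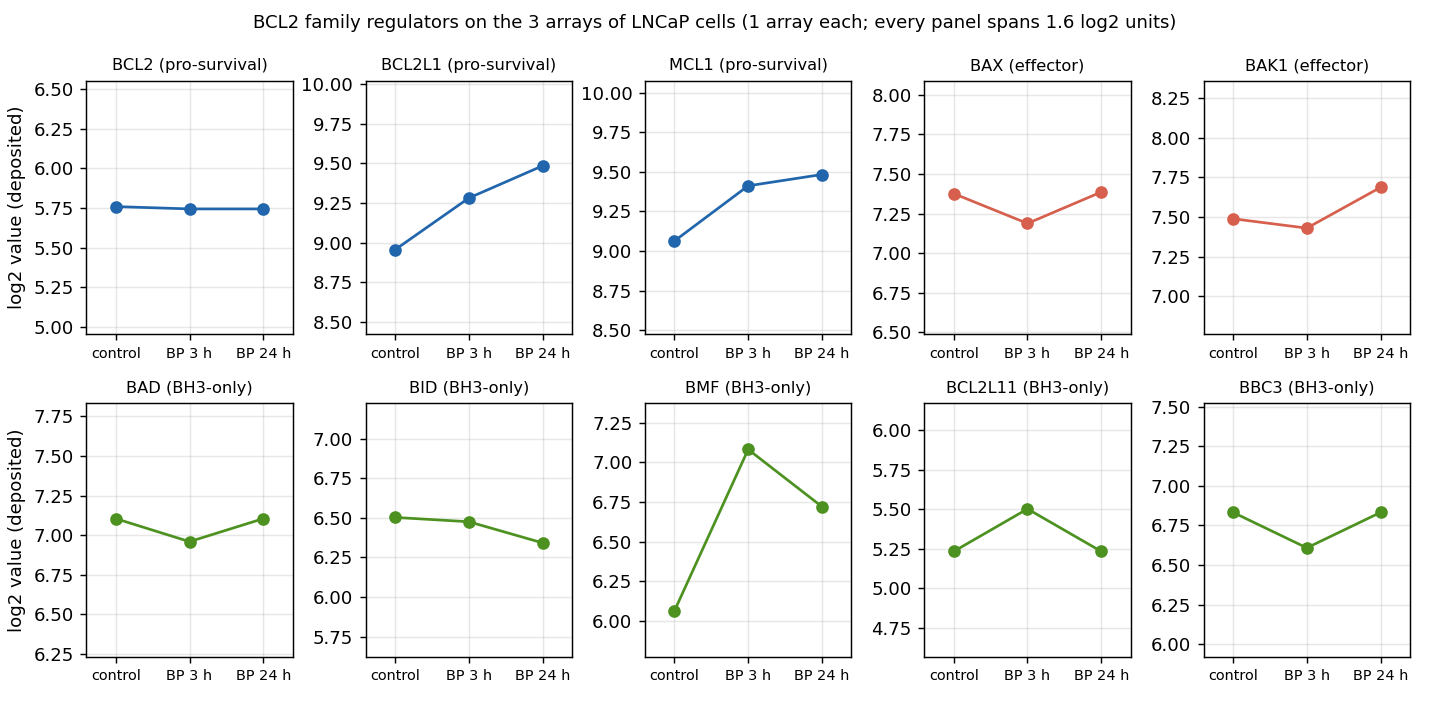
Deposited log2 values (vertical axes) of the 10 members on the control, BP 3 h and BP 24 h arrays, with 1 point for each array and the same span of log2 units in every panel. BMF had the widest spread, 1.02, and BCL2 the narrowest, 0.01.

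BCL2L1 and MCL1, 2 of the 3 pro-survival members, had values above control at both times, and BCL2 did not. BCL2L1, which encodes BCL-XL and a shorter pro-apoptotic splice form, is represented by cluster 8065569 in cytoband 20q11.21. Its log2 value was 8.95 in control cells, 9.28 with 3 h of BP and 9.48 with 24 h of BP. The values were in the order of the treatment times, 1.25-fold of control at 3 h and 1.44-fold at 24 h, and 8.53% and 9.66% of all genes lay at least as far from control. MCL1, which encodes a pro-survival protein of short half-life, is represented by cluster 7919751 in cytoband 1q21. Its log2 value was 9.06 in control cells, 9.41 with 3 h of BP and 9.48 with 24 h of BP. MCL1 was thus 1.27-fold of control at 3 h and 1.34-fold at 24 h, with 7.43% and 12.8% of all genes at least as far, and its 24 h value exceeded its 3 h value by 0.07, against 0.20 for BCL2L1. BCL2, the founding member of the family, is represented by cluster 8023646 in cytoband 18q21.33|18q21.3. Its log2 value was 5.76 in control cells and 5.74 on both BP arrays, where it was exactly the same, and its mean over the arrays lay below the median level of all genes. A difference of -0.01 is far within the range of most genes. The clusters do not separate splice forms, so the long and short forms of BCL2L1 and MCL1, which have opposite roles, were measured together.

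The effectors BAX and BAK1 differed little from control. BAX, cluster 8030158 in cytoband 19q13.3-q13.4, had a log2 value of 7.38 in control cells, 7.19 with 3 h of BP and 7.39 with 24 h of BP. The 3 h array gave the lowest value, with a difference of -0.19 from control, and 21.1% of all genes lay at least as far. At 24 h BAX differed from control by 0.01, and the sign turned under other scalings, with -0.02 for centring on the 75th percentile and -0.01 for quantile normalization. BAK1, cluster 8125766 in cytoband 6p21.3, had a log2 value of 7.49 in control cells, 7.43 with 3 h of BP and 7.69 with 24 h of BP. Its difference from control was -0.06 at 3 h and 0.20 at 24 h, and at 24 h 24.9% of all genes lay at least as far. For both effectors the 24 h value was the highest and the 3 h value the lowest of the 3 arrays, and the later value exceeded the earlier by 0.20 for BAX and 0.26 for BAK1.

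The BH3-only members other than BMF lay within 1.25-fold of control at both times. BCL2L11 encodes BIM, which binds all pro-survival members and can engage the effectors, and its transcription is known to be raised by FOXO3 and, in ER stress, by GADD153/CHOP. BCL2L11, cluster 8044375 in cytoband 2q13, had a log2 value of 5.23 in control cells, 5.50 with 3 h of BP and exactly the control value with 24 h of BP. It was 1.20-fold of control at 3 h, where 12.7% of all genes lay at least as far, and like BCL2 it lay below the median level of all genes. BBC3 encodes PUMA, a BH3-only protein with a broad binding range. BBC3, cluster 8037872 in cytoband 19q13.3-q13.4, had a log2 value of 6.83 in control cells, 6.61 with 3 h of BP and exactly the control value with 24 h of BP. Its difference at 3 h was -0.22, the lowest of the 10 members at that time.

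BAD binds BCL2 and BCL-XL and is kept in the cytosol by phosphorylation through AKT. BAD, cluster 7949067 in cytoband 11q13.1, had a log2 value of 7.10 in control cells, 6.96 with 3 h of BP and exactly the control value with 24 h of BP. Its difference was thus -0.15 at 3 h. BID links death receptors to mitochondria, since its cleavage by caspase-8 yields the active fragment. BID, cluster 8074261 in cytoband 22q11.1, had a log2 value of 6.50 in control cells, 6.48 with 3 h of BP and 6.34 with 24 h of BP. With differences of -0.03 at 3 h and -0.16 at 24 h, it was lowest on the 24 h array, where 28.7% of all genes lay at least as far from control. For BCL2L11, BBC3 and BAD the equality of the control and 24 h values is a property of the deposited values that 46.7% of all genes shared at 24 h, and it does not show that the transcripts were at the same level.

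**Figure D2:**
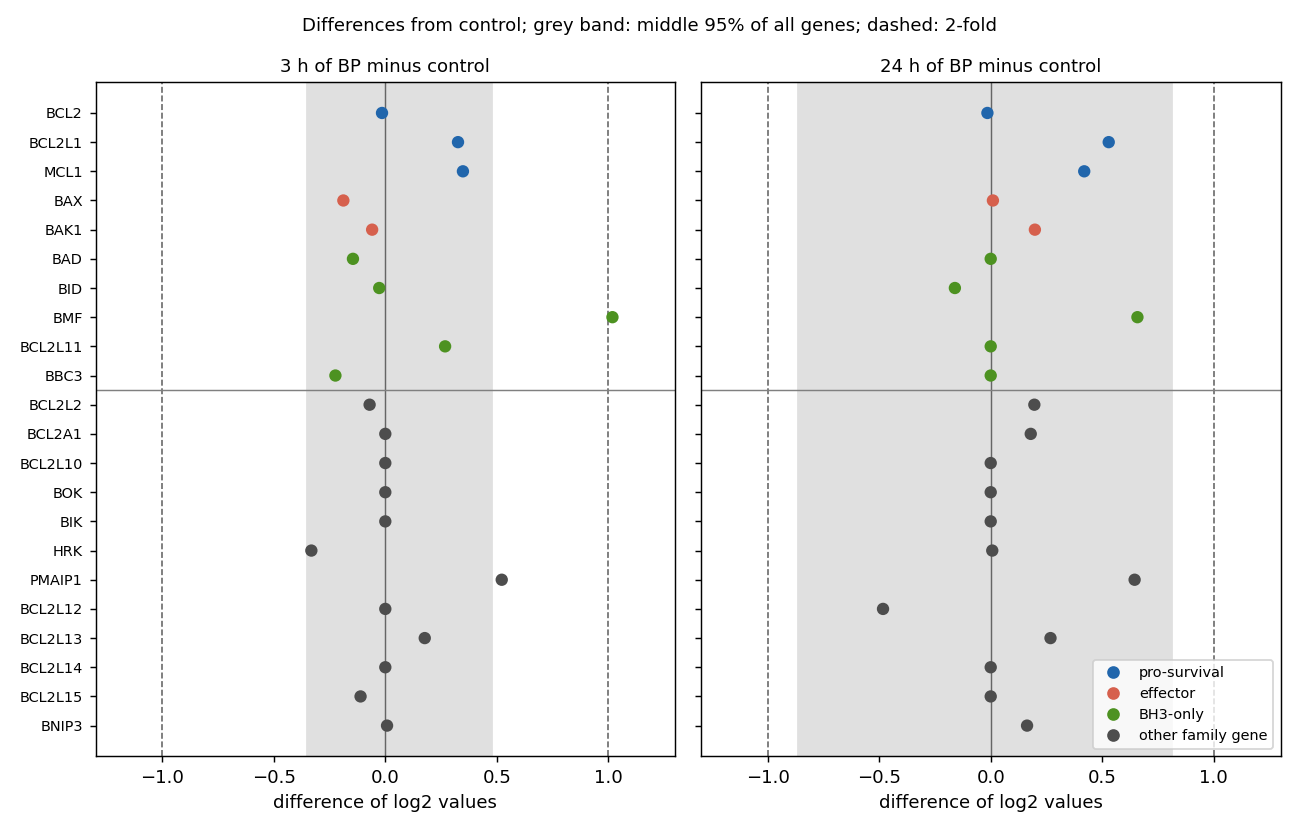
Differences of log2 values from control (horizontal axes) after 3 h and 24 h of BP for the 10 members, above the line, and 12 other BCL2 family genes, below it. The grey band holds all genes but the lowest and highest 2.5%, the dashed lines mark 2-fold, and at 3 h BMF (1.02) and PMAIP1 (0.52) lay above the band.

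Among pairs that meet at the mitochondrial membrane, the balance was also compared, as the difference of one member minus that of its partner on the same arrays. This compares differences from control and not levels, since values of different clusters cannot be set against each other. BMF relative to BCL2 was 2.05-fold of control at 3 h and 1.59-fold at 24 h, nearly as for BMF alone. BMF relative to BCL2L1 was 1.62-fold of control at 3 h and 1.09-fold at 24 h. BMF relative to MCL1 was 1.59-fold at 3 h and 1.18-fold at 24 h. BMF had a lower value at 24 h than at 3 h while BCL2L1 and MCL1 had higher ones, so both ratios lay nearer to control on the later array. BAX relative to BCL2 was 0.89-fold of control at 3 h and 1.02-fold at 24 h. BCL2L11 relative to MCL1 was 0.95-fold and 0.75-fold, and BBC3 relative to BCL2L1 was 0.68-fold and 0.69-fold. At 3 h BAX relative to BCL2 and BBC3 relative to BCL2L1 lay toward the pro-survival gene. BCL2L11 relative to MCL1 was -0.08 on the log2 scale at 3 h and 0.03 after quantile normalization, so its sign depends on the scaling. At 24 h BCL2L11 and BBC3 had exactly the control value. Their ratios at 24 h therefore only restate the differences of MCL1 and BCL2L1. Of the pairs computed, only BMF with BCL2 at 3 h was past 2-fold, and after quantile normalization this difference was 0.999 on the log2 scale, just under the threshold.

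**Figure D3:**
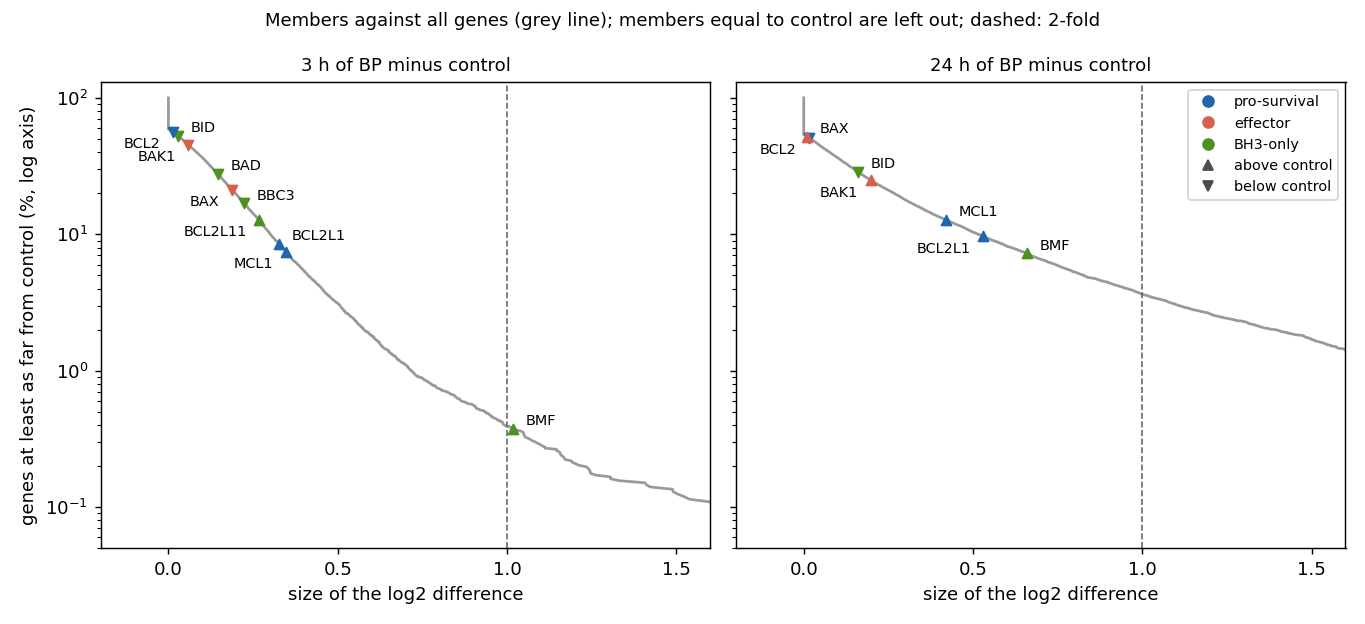
Size of the difference from control (horizontal axes) against the percentage of all 19208 genes at least as far from control (vertical axis, log scale), with the members placed on the curve of all genes. At 3 h BMF lay at 0.375% and the other members at 7.43% or more, and at 24 h the 7 members that were not equal to control lay at 7.24% or more.

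Of 12 other measured genes of the family, 0 were at least 2-fold higher or lower than in control cells at either time. The shares of all genes were 0.344% higher and 0.0469% lower at 3 h, and 1.53% and 2.11% at 24 h. At these shares a list this short would hold few or no called genes. Exactly the control value was deposited for 6 of the 12 at 3 h and for 5 at 24 h. PMAIP1 encodes NOXA, a BH3-only protein that binds MCL1 and promotes its degradation. Its transcript cluster was 8021470 in cytoband 18q21.32. Its log2 value was 6.55 in control cells, 7.08 with 3 h of BP and 7.20 with 24 h of BP, so it was 1.44-fold of control at 3 h and 1.56-fold at 24 h, the next highest values after those of BMF among all 22 family genes. At 3 h 2.68% of all genes lay at least as far from control and at 24 h 7.47%. PMAIP1 relative to MCL1 was 1.13-fold of control at 3 h and 1.17-fold at 24 h. BCL2L12 did not differ in its deposited value at 3 h and differed by -0.48 at 24 h. BCL2L13, a mitochondrial member that also serves as a mitophagy receptor, differed by 0.18 and 0.27, and BCL2L2, which encodes the pro-survival protein BCL-W, by -0.07 and 0.20. HRK, a BH3-only gene named after its values were seen, had the lowest difference of the 22 family genes at 3 h, -0.33, and differed by 0.01 at 24 h, a sign that turned to -0.02 for centring on the 75th percentile and -0.04 for quantile normalization. The pore former BOK, the BH3-only gene BIK, BCL2L10 and BCL2L14, named after their values were seen, had the same deposited value on every array. This was so for 6569 of the 19208 genes, and it does not show that the transcripts were at the same level. BNIP3L shared its cluster with another symbol and was not named.

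Of 12 genes for transcription factors known to act on BCL2 family genes, 2 were at least 2-fold higher at both times and 0 were lower. Of all genes, 0.344% were higher at 3 h and 1.53% at 24 h, and 0.0469% and 2.11% were lower. The study had reported DDIT3 as up-regulated on these arrays, and the list was made with earlier results known. The count is thus only a description. DDIT3, which encodes GADD153/CHOP, had log2 values of 6.44 in control cells, 9.29 with 3 h of BP and 9.95 with 24 h of BP, which lay 2.85 and 3.51 above control. JUN, a subunit of AP-1, differed by 2.02 at 3 h and 1.18 at 24 h. The median difference of these 12 genes was 0.09 at 3 h and 0.06 at 24 h.

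Of 14 genes for enzymes and partners that modify or bind BCL2 family proteins, 0 were past 2-fold at either time. The shares of all genes were 0.344% higher and 0.0469% lower at 3 h, and 1.53% and 2.11% at 24 h. Among the 14 the lowest difference at 24 h was -0.72, that of AKT1, whose kinase phosphorylates BAD. AKT1 was named after its value was seen. The median of the 14 was 0.05 at 3 h and 0 at 24 h. A further list of 14 genes of the mitochondrial route of apoptosis comprised channels of the outer membrane, released proteins, apoptosome components and caspase inhibitors. At 3 h 0 of these were past 2-fold, against 0.344% of all genes higher and 0.0469% lower. At 24 h 1 of these 14 genes was at least 2-fold lower, against 2.11% of all genes. It was BIRC5, which encodes survivin, a protein of both mitosis and apoptosis control, with a difference of -1.95. The related inhibitor genes BIRC2 and XIAP, chosen after their values were seen, differed by 0.91 and 0.48 at 24 h. The median of this list was 0.02 at 3 h and -0.01 at 24 h.

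**Figure D4:**
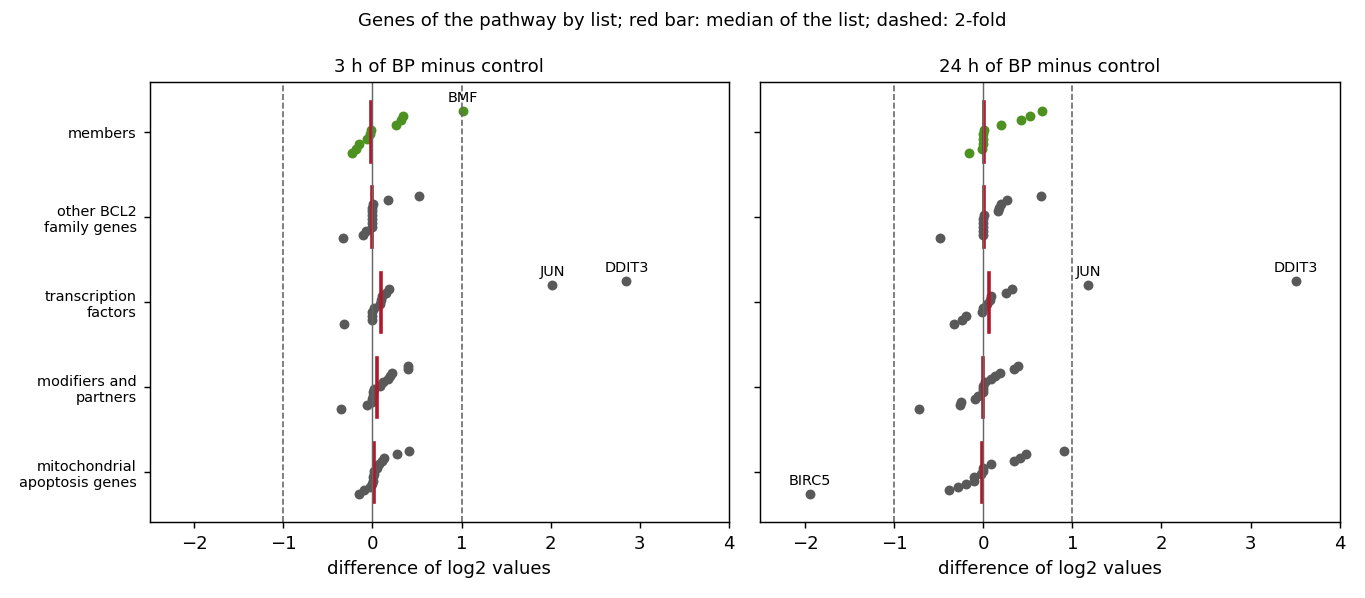
Differences of log2 values from control (horizontal axes) after 3 h and 24 h of BP for the members and 4 lists of related genes (rows), with 1 point for each gene and a red bar at the median of the list. The medians lay between -0.02 and 0.09, and BMF, JUN, DDIT3 and BIRC5 are named where they were past 2-fold.

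The genes with the pair of differences nearest to that of BMF, among 9603 genes above the median level, were SCYL3, LOC85389 and GUSBL2, at Euclidean distances of 0.12 to 0.13 on the log2 scale. SCYL3 differed from control by 0.95 at 3 h and 0.75 at 24 h. The likeness rests on 3 arrays and is a description.

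The identity of the cells and the level of other markers were checked on the same arrays. Of 10 markers of LNCaP cells, 0 were past 2-fold at 3 h and 7 were at least 2-fold lower at 24 h, among them KLK3, the gene of PSA (-2.78). Of all genes, 0.344% were at least 2-fold higher and 0.0469% lower at 3 h, and 1.53% and 2.11% at 24 h. The keratin genes KRT8 and KRT18 lay above control at 24 h, by 0.94 and 0.11. The sum of the linear values of the 10 markers was 7916 in control cells, 7765 with 3 h of BP and 5205 with 24 h of BP. Without KRT8 the sum over the other 9 was 6787, 6352 and 3042 in the same order. Of 10 markers of other prostate cancer lines and 11 of stromal, endothelial and blood cells, 0 were past 2-fold against control at either time. The shares of all genes given above for the 2 times apply here too. Exactly the control value was deposited for 10 of the 11 at each time, and for 4 of the 10 at 3 h and 5 at 24 h. Above the median level of all genes lay 1 of the 11 and 2 of the 10. These counts therefore say little about a change in such markers. Between 3 h and 24 h 1 marker of other prostate lines, LCN2, was higher by 1.01, against 0.807% of all genes at least 2-fold higher. The sum of the markers of other prostate lines was 407 in control cells, 373 with 3 h of BP and 448 with 24 h of BP, or 348, 327 and 355 without LCN2, and that of the stromal, endothelial and blood markers was 341, 339 and 355. In bulk RNA, fewer cells of a kind and less RNA per cell cannot be told apart, and the part of these markers in the values of the family was not tested.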

How the data were processed

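RNA of 3 LNCaP samples was hybridized by the authors to 1 array each, and the deposited log2 values of 33297 transcript clusters were used. According to the submitters' processing notes, Expression Console and RMA were applied (no versions), whereas MAS5.0 and then GeneSpring, with a normalization of each chip, stand in the Methods. Which of these made the values is not settled. Array medians were 5.48 (control), 5.46 (3 h) and 5.48 (24 h). Deposited comparison tables hold log2 ratios and folds of the authors, which were not used. Their gene symbols and cytobands were used, with a genome build not given in the sources used here.

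Of the clusters, 20087 had 1 symbol, 1904 had several and 11306 had none. Clusters without a single symbol were not named. For each of the 627 genes with several clusters, the cluster of highest mean level was used. All 10 members matched a current symbol in the RefSeq table of GRCh38.p14. Log2 values were subtracted without further normalization or filter, and 2-fold was the threshold. As spread between values, 0.20, the SD over genes at 3 h, was taken for a gene and 0.1 for a median. The members and lists were chosen with earlier results of these data known. Named genes were the 10 members, genes of the other lists past 2-fold, the 4 other family genes with the largest difference at 24 h, and the 3 genes nearest to the member with the largest difference at 24 h. Outside this rule, AKT1, BIRC2, XIAP, HRK, BNIP3, BOK, BIK, BCL2L10, BCL2L14 and marker genes were named after their values were seen. As alternatives, arrays were centred on the median or 75th percentile or quantile normalized, clusters of a gene were averaged or all counted, thresholds of 1.5-fold and 3-fold were used, or dim genes were left out. Single values of some listed genes are not reported here. The calculation was tested on simulated data. Calculations ran in Python 3.11.15 (numpy 2.4.6, pandas 2.3.3, matplotlib 3.10.9).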

Additional observations from a re-analysis of the deposited data

Results flagged for a closer look

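BAX, BAK1, BCL2L2 and HRK had differences from control of opposite sign at 3 h and 24 h. BAX differed by -0.19 at 3 h and 0.0099 at 24 h, BAK1 by -0.0591 at 3 h and 0.20 at 24 h, BCL2L2 by -0.0704 at 3 h and 0.20 at 24 h, and HRK by -0.33 at 3 h and 0.00696 at 24 h. Each time has 1 array and both use the same control, and the difference between the times was not tested. The signs of BAX and HRK at 24 h turned with centring on the 75th percentile (-0.02 each) and with quantile normalization (-0.01 and -0.04).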

How the results depend on the processing

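Of 120 values of the 10 members under 4 alternatives, 120 moved by less than 0.20, the SD over genes of the 3 h differences. The largest move was 0.11. Averaging clusters could not move a member, since each has a single cluster. Centring shifts every gene of a comparison by the same amount, which was below 0.20 in each case. Only quantile normalization could therefore have moved a member past this spread. The count of members at least 2-fold higher at 3 h, 1 in the values as deposited, was 0 for centring on the 75th percentile, 0 for quantile normalization and 0 at 3-fold. In the first 2 of these BMF lay at 0.94 and 0.97, just under the threshold. The count at least 2-fold higher at 24 h, 0 as deposited, was 1 at 1.5-fold, namely BMF. Counts of lower members and counts between 3 h and 24 h were 0 under every alternative run. Over the alternatives, the median of the members was -0.10 to -0.01 at 3 h, and -0.02 to 0.10 at 24 h. With centring on the 75th percentile the median of all genes was itself -0.08 at 3 h and -0.03 at 24 h. The share of all genes at least 2-fold higher at 3 h, 0.344%, was 0.541% among genes above the median level and 1.6% over all transcript clusters, and the share lower at 3 h, 0.0469%, was 0.336% over all clusters. At 24 h the shares higher and lower were 2.48% and 3.69% among genes above the median level, and the share lower at 24 h than at 3 h, 2.4%, was 4.06%. No paired analysis was possible because each condition has 1 array and the labels give no replicate numbers. Values of dim clusters and of the 1 array in each condition limit what can be said of BCL2 and BCL2L11, which lay below the median level. BMF lay above that level by its mean over the arrays, but its control value, 6.062, was close to the level of 6.055.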
